A study of Homo sapiens with 4 samples.

Results

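The 4 human HOX gene clusters and 500 kb on each side of them were followed through S phase in single cells of the HCT116 and DKO1 lines. The members are all bins of the deposited 80 kb table that overlap these windows in hg19 coordinates, 61 of 27704 bins. HOXA on chromosome 7 had 15 bins, HOXB on chromosome 17 had 16, HOXC on chromosome 12 had 15 and HOXD on chromosome 2 had 15, so every cluster had bins and all 61 were called often enough to be used. HCT116 is an established human colorectal cancer line, and DKO1 was derived from it by knockout of the DNA methyltransferase genes DNMT1 and DNMT3B. Both were grown in the same medium, stained with a DNA dye and sorted by DNA content, and the early, mid and late fractions of S phase were mixed in equal parts for 1 droplet library per line. The labels do not say whether DKO1 was a single clone, how much enzyme was left was not examined, and the G1 libraries were not analysed here.

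HOX genes encode homeodomain transcription factors that give the embryo's segments their identity from head to tail. In mammals they lie in 4 clusters that arose from a single ancestral cluster by duplication, with genes of the same number being paralogues, and within a cluster the order of the genes follows the order of their expression along the body axis. In differentiated cells the clusters are held silent by Polycomb proteins or kept active in part. DNA replicates in a set order during S phase, with gene-rich active chromatin usually copied early and silent, lamina-bound chromatin late, and the 2 knocked-out enzymes place and keep methylation on CpG sites through much of the genome.

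The 39 HOX genes comprise 12 anterior paralogues (numbers 1 to 4), 11 central ones (5 to 8) and 16 posterior ones (9 to 13). HOXA holds 11 genes, with HOXA13 at the higher coordinate. It lies between SNX10 (a sorting nexin) and SKAP2 (an adaptor protein) before it, and EVX1 (a homeobox gene related to HOX) and HIBADH (an enzyme of valine breakdown) after it. HOXB holds 10 genes, from HOXB1 to HOXB13, between SNX11 and SKAP1 (an adaptor of T cells) on one side and TTLL6 (a tubulin-modifying enzyme) and CALCOCO2 (an autophagy receptor) on the other. HOXC holds 9 genes, with HOXC13 at the lower coordinate, between ATP5MC2 (a subunit of ATP synthase) and CALCOCO1 before it, and SMUG1 (a uracil-DNA glycosylase) and CBX5 (heterochromatin protein 1 alpha) after it. HOXD holds 9 genes, from HOXD13 to HOXD1, with LNPK (an endoplasmic reticulum protein) and EVX2 before it, and MTX2 (a mitochondrial import protein) and HNRNPA3 (an RNA-binding protein) after it. Gene order came from the RefSeq table of GRCh38.p14, while the bins are in hg19, so bins are given by position and were not assigned to single genes. Within the windows, the bins over the clusters were chr7:27120001-27280000 (2 bins), chr17:46560001-46880000 (4 bins), chr12:54320001-54480000 (2 bins) and chr2:176880001-177120000 (3 bins).

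The shared ancestry of the clusters shows in the microRNAs embedded in them. Their mature sequences from RefSeq (GRCh38.p14) are shown because they place like parts of 3 clusters side by side, with the seed, bases 2 to 8, in capitals. MIR196B lies between HOXA9 and HOXA10, MIR196A1 between HOXB9 and HOXB13, and MIR196A2 between HOXC10 and HOXC9, and the last 2 give the same mature sequence. MIR10A lies between HOXB4 and HOXB5 and has another seed. MIR10B lies between HOXD8 and HOXD4.
hsa-miR-196b-5p (HOXA): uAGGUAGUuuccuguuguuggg
hsa-miR-196a-5p (HOXB and HOXC): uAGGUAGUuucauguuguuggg
hsa-miR-10a-5p (HOXB): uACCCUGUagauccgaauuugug
The miR-196 sequences share the seed and differ at 1 of 22 bases, C12A from miR-196b-5p to miR-196a-5p, counted from 1 at the 5′ end.

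CpG sites are the substrate of the knocked-out enzymes, so the promoters were read for CpG (the letters CG). RefSeq promoter windows, 250 bases before to 50 after the start, were matched for 20 of the 39 HOX genes. The median was 22.5 CpG, against 14 over 27305 genes, and 16 of the 20 lay above that value. The quartiles over all genes were 3 and 28 CpG, so the HOX median lay inside them. The median percent of G and C was 58 in the HOX windows and 58.3 over all genes. The 9 HOXA windows held 11 to 44 CpG (median 22), with HOXA13 highest, and the 8 HOXD windows 4 to 36 (median 24.5), with HOXD1 highest. HOXB had 1 window and HOXC 2, those of HOXC4 and HOXC5, with 15 CpG each. Whether the HOXC windows overlap was not examined. Paralogue 4 of HOXA and of HOXD are printed with each CG in capitals as an example of paralogues that differ in CpG, as the strand of the gene reads them. They are HOXA4 (GRCh38.p14 chr7:27130708-27131007, minus strand, 27 CpG) and HOXD4 (GRCh38.p14 chr2:176151300-176151599, plus strand, 4 CpG). HOXD4 has the lowest count of the 20 windows, so the pair does not stand for its clusters.
HOXA4: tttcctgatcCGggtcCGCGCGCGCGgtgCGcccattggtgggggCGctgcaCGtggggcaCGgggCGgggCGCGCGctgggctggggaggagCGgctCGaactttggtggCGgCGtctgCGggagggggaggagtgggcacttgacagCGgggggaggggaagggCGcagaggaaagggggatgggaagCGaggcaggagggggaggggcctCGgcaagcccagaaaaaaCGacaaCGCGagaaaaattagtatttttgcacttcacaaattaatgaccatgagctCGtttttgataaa
HOXD4: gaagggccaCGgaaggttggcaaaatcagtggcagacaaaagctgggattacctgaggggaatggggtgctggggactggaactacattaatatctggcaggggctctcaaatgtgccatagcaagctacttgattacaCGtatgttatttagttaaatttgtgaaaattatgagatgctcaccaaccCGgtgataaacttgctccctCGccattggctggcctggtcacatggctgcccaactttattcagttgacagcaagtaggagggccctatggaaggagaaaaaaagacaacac
These letters describe the reference genome. Methylation was not measured in these libraries, and a bin of 80 kb spans many such windows.

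The table held 322 HCT116 and 207 DKO1 cells, and 0 cell barcodes were shared between the lines. How far a cell had come in S phase, its progress, was measured as the replicated percent of its called bins. The median was 52.7% in HCT116 (17.3 to 77.6%) and 48.8% in DKO1 (9.49 to 78.5%), with 35 and 12 cells under 30%. To compare the lines at matched progress, cells were grouped in 6 strata of 10 points from 20 to 80%, which held 320 and 206 cells, and the strata were weighted equally. This gives each bin a standardised share, the percent of cells with that bin replicated, and differences are DKO1 minus HCT116 in points of this share. What the codes mean is not defined in the table, and here 2 stands for replicated, 1 for unreplicated and 0 for not called. Each line is 1 library, so there is no spread between replicates to set a difference against, and no test was made. A bin has 1 code per cell, which does not separate the homologues. Intervals are exact binomial (Clopper-Pearson) 95% intervals that cover counting error of cells only, and the read depth behind a call is unknown.

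HOXC replicated earliest and HOXD latest in both lines. The standardised share of the HOXC cluster was 97.0% in HCT116 and 100% in DKO1. That of HOXB was 87.8 and 95.5%, and that of HOXA 84.6 and 79.9%. The share of HOXD was 35.1 and 46.1%, so this cluster alone was unreplicated in most cells of both lines. Among the used bins of the genome, HOXC stood at percentile 90.8 in HCT116 and 99.8 in DKO1, HOXB at 79.0 and 91.8, HOXA at 75.7 in both, and HOXD at 40.0 and 48.4.

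The strata show when each cluster was copied. Under 30% progress the HOXC cluster was already replicated in 26 of 30 HCT116 cells (86.7%, interval 69.3 to 96.2%) and in 12 of 12 DKO1 cells. HOXB was replicated there in 16 of 31 and 10 of 12 cells, and HOXA in 12 of 31 and 5 of 10. HOXD was replicated in 0 of 35 HCT116 cells, which allows up to 10.0%, and in 1 of 12 DKO1 cells. At 70% progress and over, HOXA, HOXB and HOXC were replicated in every cell with a call in both lines, and HOXD in 15 of 19 and 7 of 9. A cell with an unreplicated HOXD cluster was seen at up to 77.6% progress in HCT116, its highest progress of all, and at up to 72.3% in DKO1.

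**Figure D1:**
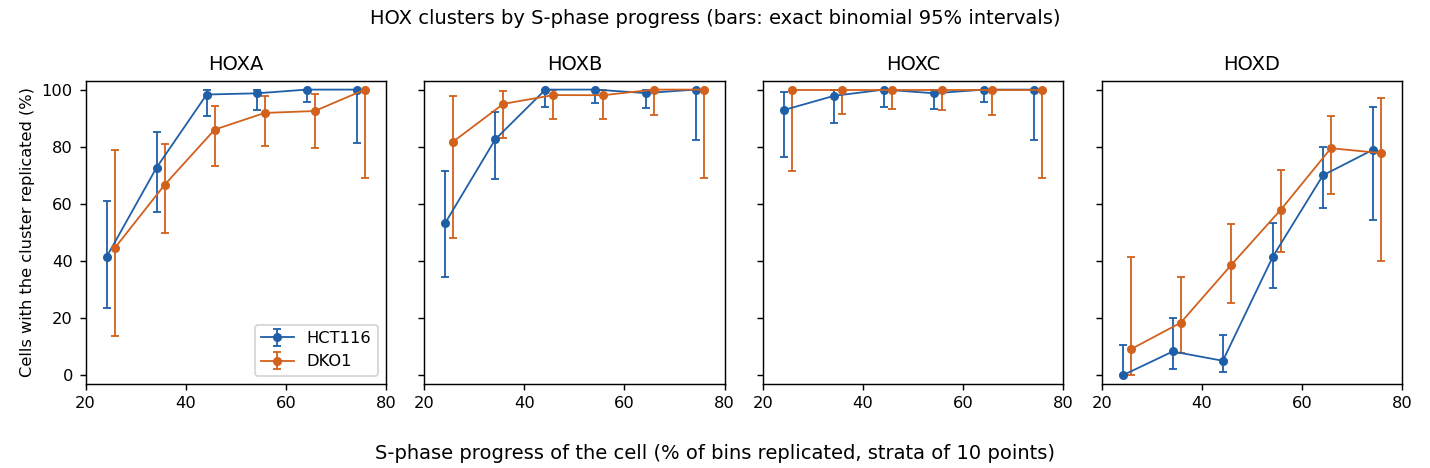
Percent of cells with the cluster replicated (y axis) in each 10-point stratum of S-phase progress (x axis), for HCT116 (blue) and DKO1 (orange). Points are the share of cells with a majority of cluster bins replicated and bars are exact binomial 95% intervals; HOXC is near 100% throughout, and HOXD rises from 0 of 33 to 15 of 19 HCT116 cells.

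Because all 4 clusters were read in the same cell, their order does not rest on matching. Among cells in which 1 of HOXC and HOXD was replicated, it was HOXC in 197 of 197 HCT116 and 105 of 105 DKO1 cells. HOXB preceded HOXD in 180 of 182 and 99 of 99. HOXA preceded HOXD in 164 of 165 HCT116 cells (99.4%, interval 96.7 to 99.98%), against 76 of 84 in DKO1 (90.5%, 82.1 to 95.8%). HOXD thus came last in nearly all cells that could tell the order.

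The 3 early clusters were less strictly ordered. HOXC preceded HOXB in 19 of 23 HCT116 and 6 of 6 DKO1 cells, and HOXA in 27 of 29 and 32 of 32. HOXB preceded HOXA in 22 of 35 HCT116 cells (62.9%, interval 44.9 to 78.5%), an interval that includes both orders, and in 30 of 33 DKO1 cells (90.9%, 75.7 to 98.1%). In HCT116, HOXB and HOXA therefore had no order beyond counting error, while in DKO1 HOXB came first in most of these cells. The intervals of the lines overlap, and the difference between them was not tested. In 10 DKO1 and 4 HCT116 cells, chromosome 7 as a whole lay more than 15 points off its usual relation to progress. Such cells were not left out of these counts.

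With the order HOXC, HOXB, HOXA, HOXD, which was read from these data, 12 of 291 HCT116 cells (4.12%) and 9 of 187 DKO1 cells (4.81%) fell out of order. Weighted over the strata the values were 6.51 and 3.53%, so the line with more such cells depended on the matching. The commonest pattern in HCT116 was the 3 early clusters replicated without HOXD, in 148 cells (50.9%), followed by all 4, in 105 (36.1%). In DKO1 all 4 clusters were replicated in 82 cells (43.9%) and the 3 early ones alone in 73 (39.04%). HOXC and HOXB without HOXA or HOXD was the state of 17 HCT116 cells (5.84%) and 21 DKO1 cells (11.2%). The earliest DKO1 cell, at 9.49% progress, already had HOXA, HOXB and HOXC replicated.

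In 8 DKO1 cells and 1 HCT116 cell HOXD was replicated while HOXA was not. In 4 of those 8 DKO1 cells the whole of chromosome 7, which carries HOXA, lay more than 15 points below its usual relation to progress. The residuals of chromosome 7 ran from -55.7 to 2.56 points, and code 0 took a median of 4.36% of bins in the 8 cells, against 2.07% over all DKO1 cells. Without cells in which chromosome 7 or 2 lay more than 15 points off its relation to progress, HOXA preceded HOXD in 69 of 73 DKO1 cells (94.5%, interval 86.6 to 98.5%) and in 162 of 163 HCT116 cells.

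The comparison of the lines asked whether loss of the 2 methyltransferases goes with a change in the timing of these loci. At matched progress, HOXD and its flanks were replicated in more DKO1 than HCT116 cells, HOXA and its flanks in fewer, HOXB in more over the cluster and the 3 bins next to it on the side before it, and HOXC in nearly all cells of both lines. Of the 61 bins, 5 were higher in DKO1 by at least 15 points, all after HOXD, and 2 were lower, both after HOXA. Of all 27142 used bins, 6.90% were higher by this limit and 7.39% lower, so the 8.20% and 3.28% of HOX bins are close to or under the background, and neighbouring bins are not independent. At a limit of 10 points 10 HOX bins were higher and 7 lower, against 14.7% and 14.8% of all used bins. At 20 points it was 0 and 0, against 3.24% and 3.57%. No bin over a cluster itself passed the limit. The median difference was 0.719 points over the HOX bins and 0.008 over all used bins.

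**Figure D2:**
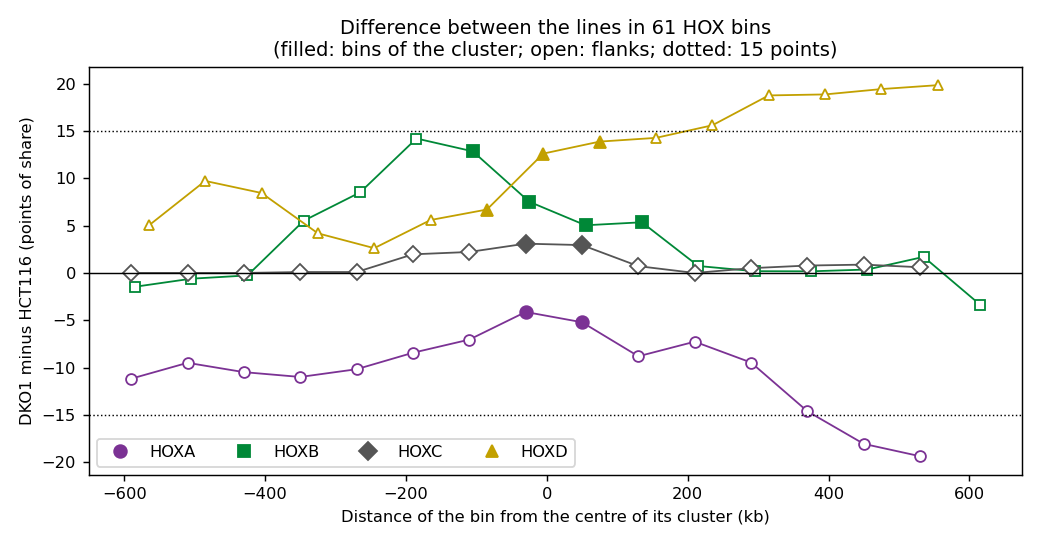
Difference of standardised share, DKO1 minus HCT116 in points (y axis), for the 61 HOX bins by distance from the centre of their cluster in kb (x axis). Filled symbols are bins over the cluster, open ones flanks, and dotted lines mark 15 points; all HOXD bins lie above 0, reaching 19.8, and all HOXA bins below it, reaching -19.4.

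HOXD was the cluster with the largest difference. The cluster was replicated in 110 of 318 HCT116 cells with a call (34.6%, interval 29.4 to 40.1%). In DKO1 it was replicated in 95 of 200 (47.5%, interval 40.4 to 54.7%). In HCT116 it was replicated in 4 of 48 cells at 30 to 40% progress, 3 of 59 at 40 to 50%, 32 of 77 at 50 to 60% and 56 of 80 at 60 to 70%. In DKO1 the same strata gave 7 of 38, 20 of 52, 29 of 50 and 31 of 39. The lines stood furthest apart at 40 to 50%, where 5.09% of HCT116 cells (interval 1.06 to 14.1%) and 38.5% of DKO1 cells (25.3 to 53.0%) had copied the cluster. These intervals, which cover counting error only, do not overlap, but the stratum was picked for its difference. In every other stratum the intervals of the lines overlap. At 70 to 80% the values were 78.9 and 77.8%. The standardised difference was 11.1 points.

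The difference was uneven along the HOXD window. All 15 bins were higher in DKO1. The 6 bins before the cluster differed by a mean of 5.93 points, the 3 cluster bins by 6.70, 12.6 and 13.9 in order of position, and the 6 bins after it by a mean of 17.8. The lowest difference was 2.62 points at chr2:176720001-176800000 and the highest 19.8 points at the last bin, chr2:177520001-177600000, with shares of 42.4% in HCT116 and 62.2% in DKO1. Just inside and outside the limit of 15 points stood the bins at 177200001 (15.6 points) and 177120001 (14.3 points). Bins past the limit formed a run of 6 over chr2:177200001-177680000, 140 kb from the cluster, of which 5 lie in the window.

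In HCT116 the HOXD cluster bins, with 34.3 to 35.9%, differed little from the flanks, with 29.6% before and 34.7% after. In DKO1 the share was 35.5% before the cluster, 42.6 to 48.8% over it and 52.5% after it. The window spanned 16.6 points between its lowest and highest bin in HCT116 and 29.6 in DKO1. Over the whole of chromosome 2 the mean difference was -0.226 points, against 11.7 over the HOXD window. Among the 1683 used bins with an HCT116 share of 30 to 40%, the median difference was 1.66 points (quartiles -5.89 and 9.30) and 12.7% were higher by the limit. The 11.1 points of the HOXD cluster lay above the upper of these quartiles.

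HOXA went the other way, most of all in its flanks. All 15 bins of the window were lower in DKO1, by a mean of -10.3 points. The cluster bins differed least, with -4.12 points at chr7:27120001-27200000 (84.9 and 80.8%) and -5.20 at chr7:27200001-27280000 (84.3 and 79.1%). The 7 bins before the cluster differed by a mean of -9.67 points and the 6 after it by -12.9. The lowest difference, -19.4 points, was in the last bin, chr7:27680001-27760000, which was replicated in 306 of 320 HCT116 and 166 of 205 DKO1 cells (standardised shares 94.0 and 74.6%). The bins on either side of the limit were those at 27600001 (-18.0 points) and 27520001 (-14.6 points). The run of bins past the limit covered chr7:27600001-28080000, 6 bins of which 2 lie in the window, 350 kb from the cluster.

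The profile of HOXA also had another shape in DKO1. In HCT116 the share climbed through the cluster towards the far side, from 81.2% before to 84.6% over the cluster and 88.3% after. In DKO1 the cluster was the highest point, with 79.9% against 71.5% before and 75.4% after. Within 2 Mb of the cluster, the bin with the highest share in HCT116 was after it, 530 kb from centre to centre. In DKO1 the highest was the cluster's own bin at 27120001. Chromosome 7 as a whole had a mean difference of -3.02 points. Of the 2631 used bins with an HCT116 share of 80 to 90%, the median difference was -5.16 points (quartiles -11.5 and 0.879), and 15.6% were lower by the limit. The cluster, at -4.66 points, lay inside these quartiles. Of the bins after it, those at 27600001 and 27680001 had HCT116 shares of 91.8 and 94.0%, outside this class. They differed by -18.0 and -19.4 points, against quartiles of -5.57 and -0.0758 for bins at 90 to 100%. Of the other bins after the cluster, only that at 27520001, at -14.6 points, lay below the quartiles of the 80 to 90% class.

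**Figure D3:**
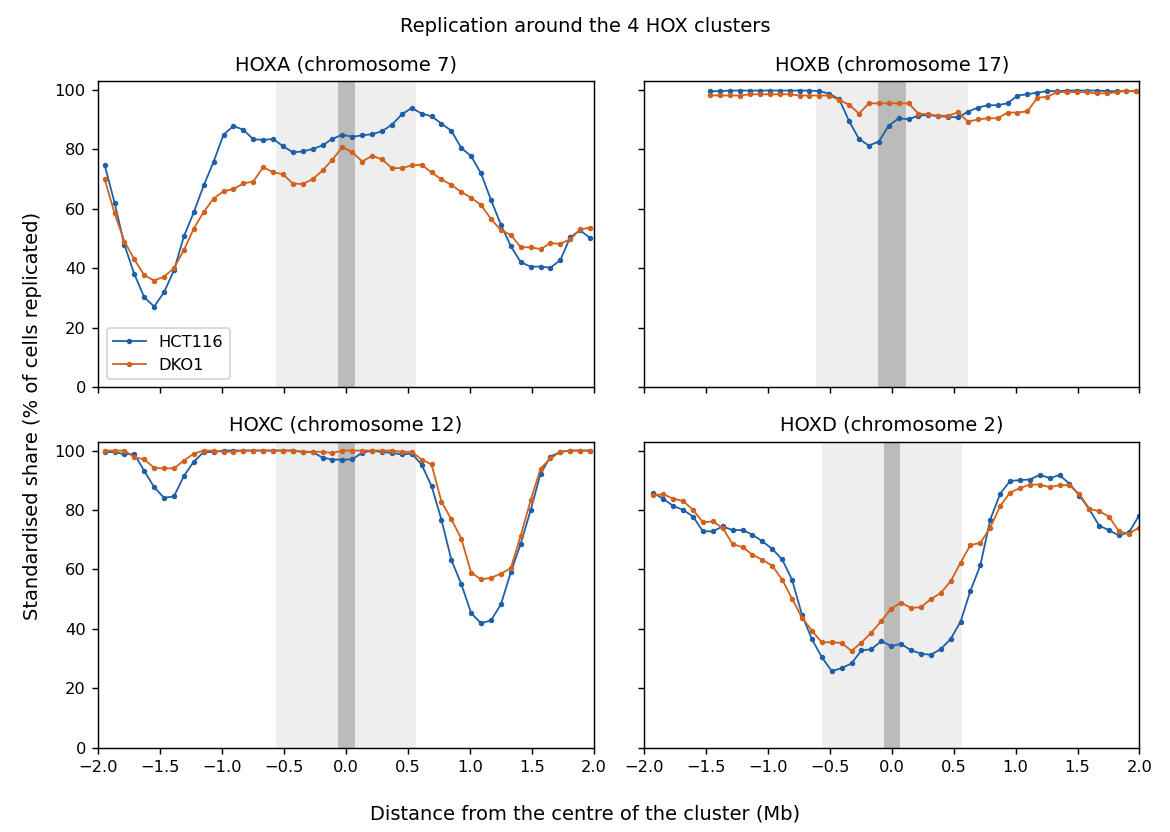
Standardised share of each 80 kb bin (y axis, % of cells replicated) within 2 Mb of the centre of each cluster (x axis, Mb) in HCT116 (blue) and DKO1 (orange). Dark grey is the cluster and light grey its 500 kb flanks; HOXA lies near the top of a broad peak, HOXB in a dip that is seen in HCT116, HOXC on a plateau near 100%, and HOXD in a trough.

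By strata, HOXA was replicated in 57 of 58 HCT116 cells at 40 to 50% progress (98.3%, interval 90.8 to 99.96%), against 43 of 50 in DKO1 (86.0%, 73.3 to 94.2%). At 60 to 70% it was replicated in 80 of 80 and 37 of 40. An unreplicated HOXA cluster was last seen at 52.4% progress in HCT116 and at 65.3% in DKO1. Each value rests on a single cell, and that of DKO1 is among the 8 with HOXD replicated and HOXA not. At 20 to 30%, where cells were few, 12 of 29 HCT116 and 4 of 9 DKO1 cells had copied the HOXA cluster. In 10 DKO1 cells and 4 HCT116 cells, chromosome 7 lay more than 15 points off its relation to progress. Without them the difference was -3.13 points for the cluster and -8.81 for the window. With strata from 30 to 70% the cluster differed by -7.75 points.

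The midpoint progress, at which a logistic curve of state against progress on the other autosomes passes 50%, gives timing without strata, and the width is its span from 25 to 75%. For the HOXD cluster it was 59.7% in HCT116 and 51.4% in DKO1, with widths of 16.0 and 25.2 points. For HOXA it was 28.4% and 26.0%, with widths of 12.4 and 27.4 points. The HOXA midpoint was thus slightly earlier in DKO1 although its standardised share was lower, and the curve of DKO1 was the wider. In the cells with code 0 in 1% of bins or fewer, the DKO1 midpoint of HOXA was 33.5%, later than in HCT116. For HOXB the midpoint was 24.5% in HCT116, while the midpoint of HOXB in DKO1 and of HOXC in either line did not fall within the range of the cells.

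Bin by bin, the midpoint of every HOXD bin was earlier in DKO1, by -1.10 to -13.1 points, the latter in the last bin (54.1 and 41.0%). In the HOXA window the 2 cluster bins were earlier in DKO1 by -2.40 and -0.381 points. All 13 flank bins were later, by up to 9.52 points in the last bin (20.8 and 30.4%). The cluster bins of HOXA differed in sign from their flanks with all cells. In cells with code 0 in 1% of bins or fewer, the midpoint of the cluster was 28.9% in HCT116 and 33.5% in DKO1, later in DKO1. The flank bins were not fitted in those cells, which numbered 187 in HCT116 and 60 in DKO1 at 30 to 70% progress.

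**Figure D4:**
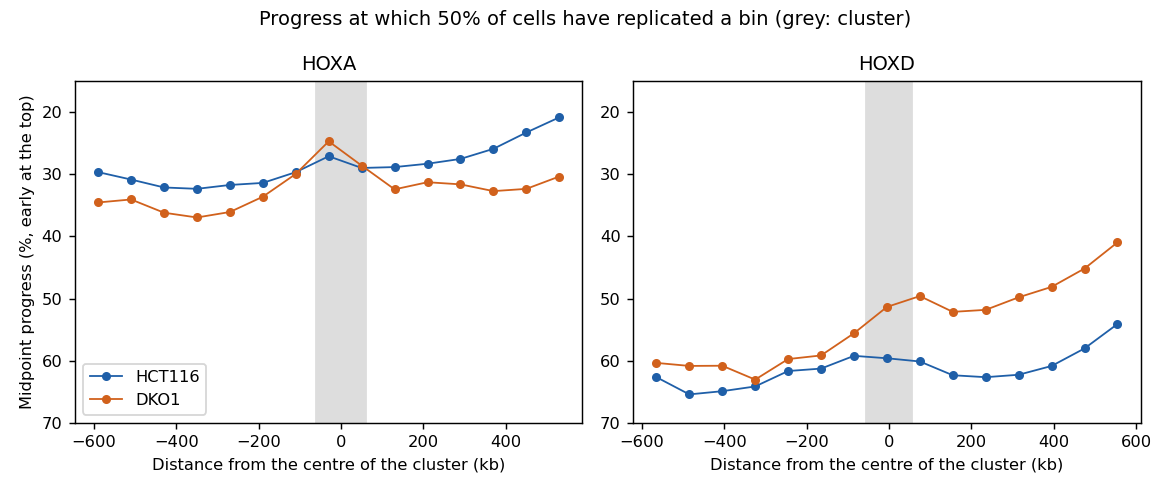
Midpoint progress of each bin (y axis, %, early at the top) of the HOXA and HOXD windows by distance from the centre of the cluster in kb (x axis), in HCT116 (blue) and DKO1 (orange), with the cluster in grey. The curves of HOXD run apart towards the right, to 54.1 and 41.0%, and those of HOXA, with all cells used, cross at the cluster.

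At matched progress, HOXB was replicated in more DKO1 than HCT116 cells over the cluster and just before it. The 4 cluster bins had shares of 82.6, 88.0, 90.5 and 90.1% in HCT116 in order of position. In DKO1 each of the 4 was replicated in the same number, 199 of 205 cells, a share of 95.5%. The highest difference, 14.2 points, was in the bin before the cluster, chr17:46480001-46560000, with 81.3 and 95.5%. After the cluster the mean difference over 6 bins was -0.031 points, with the lowest of the window, -3.34 points, at chr17:47280001-47360000. Chromosome 17 as a whole differed by 0.424 points. Of the 5126 used bins with an HCT116 share of 90 to 100%, the median difference was -2.25 points, and of those at 80 to 90%, where the HOXB cluster falls, -5.16, so the 7.69 points of the cluster had the opposite sign to the median of its class. The difference of the cluster lay in the early strata, where DKO1 cells were few. The cluster was replicated in 16 of 30 HCT116 and 9 of 11 DKO1 cells at 20 to 30% progress. At 30 to 40% it was 38 of 46 and 38 of 40. At 40 to 50% it was 59 of 59 and 51 of 52, and at 50 to 60% 78 of 78 and 50 of 51, slightly lower in DKO1. With strata from 30 to 70% the cluster differed by 3.58 points.

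The HOXB bins before the cluster formed a dip in HCT116. The bins within 2 Mb of HOXB numbered 44 and began at -1465 kb from its centre, so the side before it was covered in part. Among them, the bin at 46480001 had the lowest share in HCT116 (81.3%), while the lowest in DKO1 was at 47280001 (89.3%). In DKO1 the lowest bin before the cluster was its neighbour at 46400001, with 92.0%. These bins were chosen for their low shares, so their counts in single cells describe the dip and are no separate support for it. With the first bin of the window and the last of the cluster replicated, the bin at 46480001 was unreplicated in 26 of 298 HCT116 cells (8.72%, interval 5.78 to 12.5%) and 0 of 198 in DKO1, which allows up to 1.85%. The bin at 46400001 was unreplicated in 23 of 298 (7.72%, interval 4.96 to 11.4%) and 2 of 198 (1.01%, interval 0.123 to 3.601%). Inside the cluster, the state switched at the 3 borders between its bins in 15, 7 and 6 of 322 HCT116 cells and in 0 of 205 DKO1 cells at each. Under 30% progress the cluster was replicated in 16 of 31 HCT116 cells (51.6%, interval 33.1 to 69.8%) and 10 of 12 DKO1 cells (83.3%, 51.6 to 97.9%), and these intervals overlap.

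HOXC was at the ceiling of the measure. Its cluster was replicated in 309 of 315 HCT116 cells with a call (98.1%, interval 95.9 to 99.3%), against 205 of 205 in DKO1 (98.2 to 100%). The 2 cluster bins had shares among the lowest of the window in HCT116, 96.9 and 97.1%, against 99.1% before and 99.3% after on average, and 100% in DKO1. The highest difference was 3.09 points at chr12:54320001-54400000, 11 bins were higher in DKO1, 4 were equal and 0 lower. The neighbourhood differed more than the window, since the lowest bin within 2 Mb, chr12:55440001-55520000, had shares of 41.9% in HCT116 and 56.7% in DKO1. Chromosome 12 as a whole differed by -1.37 points.

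The windows also differed in how uniformly single cells copied them. The HOXD window held bins of both states in 163 of 318 fully called HCT116 cells (51.3%, interval 45.6 to 56.9%) and 107 of 197 DKO1 cells (54.3%, 47.1 to 61.4%). HOXA was mixed in 81 of 320 (25.3%) and 70 of 202 (34.7%), HOXB in 61 of 322 (18.9%) and 13 of 205 (6.34%), and HOXC in 18 of 321 and 2 of 204. Weighted over the strata, the mixed share was 46.0 and 44.4% for HOXD, 29.8 and 34.5% for HOXA, and 25.03 and 12.9% for HOXB. For HOXD the direction depended on the setting, since the mixed share was 52.6 and 68.3% in cells with code 0 in 1% of bins or fewer at 30 to 70% progress, and 85.4 and 73.2% with flanks of 1000 kb. The whole HOXA window was unreplicated in 6 HCT116 cells (1.88%) and 16 DKO1 cells (7.92%). These 2 counts were not weighted over the strata, and cells with chromosome 7 off its relation to progress were kept in them.

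**Figure D5:**
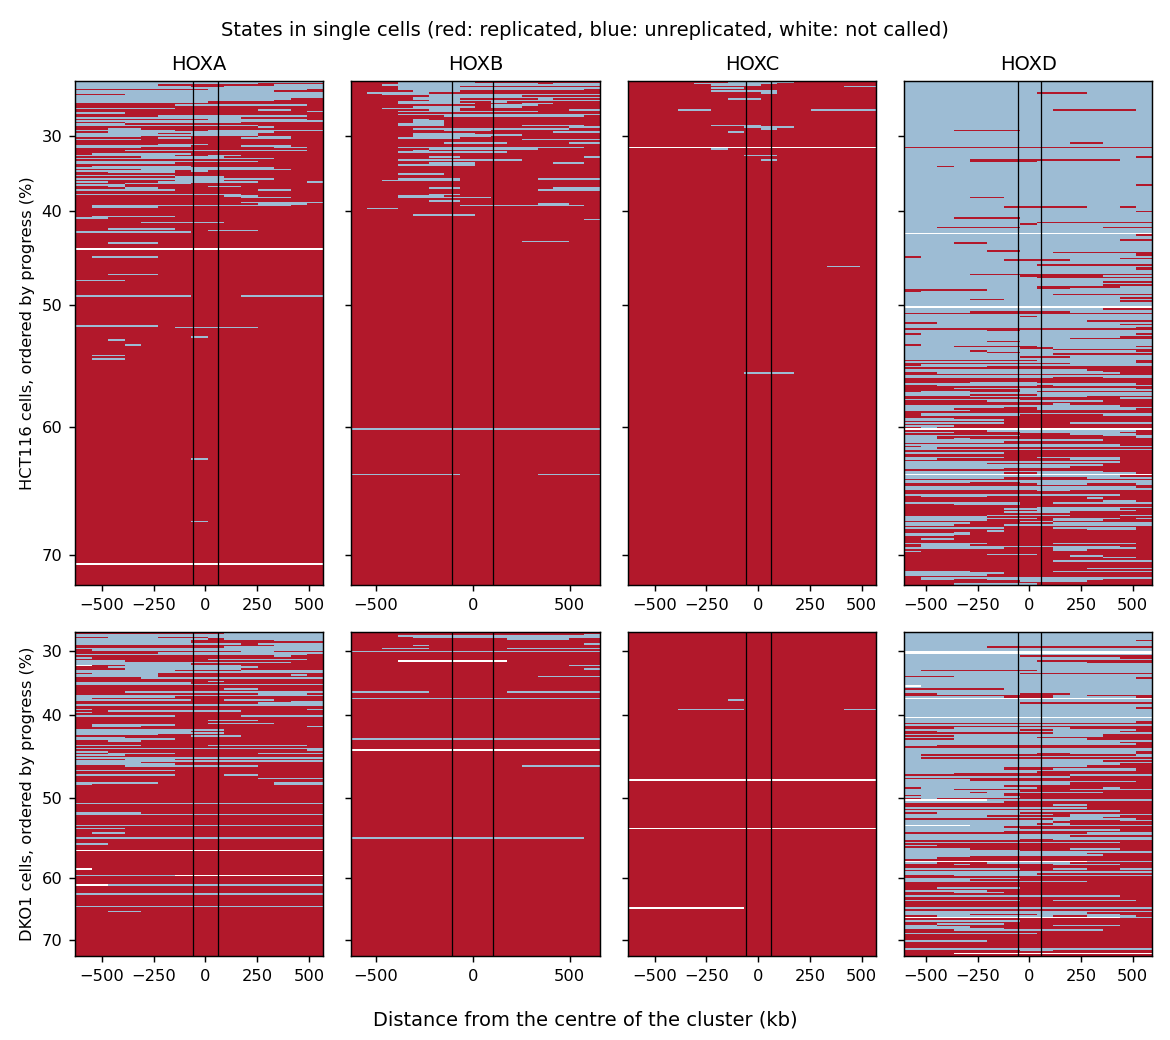
State of each bin (red replicated, pale blue unreplicated, white not called) in each cell, with cells ordered by progress from top to bottom (y axis, %) and distance from the centre of the cluster in kb on the x axis; vertical lines bound the cluster. HOXC is red in almost every cell, and HOXD has long blue stretches, on the left more than on the right, up to the highest progress.

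Where a window switched state a single time, the side that was copied first was mostly the side after HOXD. The part after the switch was the replicated one in 59 of 74 HCT116 and 63 of 69 DKO1 cells for HOXD, and in 24 of 27 and 25 of 36 for HOXA. For HOXB it was so in 0 of 11 and 1 of 9, so there the side before the switch was copied first. More than 1 switch was seen in 25.2% of HCT116 and 15.4% of DKO1 cells for HOXD, in 20.01 and 4.96% for HOXB, and in 19.2 and 17.1% for HOXA, weighted over the strata. The HOXD difference, -9.79 points, was -2.88 in cells with code 0 in 1% of bins or fewer at 30 to 70% progress and -3.28 with flanks of 250 kb. The HOXB difference, -15.1 points, was -8.08 with flanks of 250 kb.

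Set against the ends of their windows, the clusters of HOXA and HOXD differed. The last bin of the HOXD window preceded the cluster in 59 of 83 HCT116 cells (71.1%, interval 60.1 to 80.5%) and 47 of 56 DKO1 cells (83.9%, 71.7 to 92.4%). The first bin preceded it in 27 of 72 and 11 of 52, so the HOXD cluster lay between these end bins in both lines. In HCT116 its mean share, 35.1%, was above that of both sides, 29.6% before and 34.7% after. The last bin of the HOXA window preceded the cluster in 25 of 30 HCT116 cells (83.3%, interval 65.3 to 94.4%) but in 10 of 25 DKO1 cells (40.0%, 21.1 to 61.3%). These intervals do not overlap, and this pair of ends was picked with the shares in view. The first bin of HOXA preceded the cluster in 13 of 31 and 9 of 39, so in DKO1 the cluster was copied before the first end in 30 of 39 cells.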

How the data were processed

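The deposited table gives 1 state code per 80 kb bin and cell, in hg19 coordinates. Per the file headers, a column is 1 cell, with its line in the column name. Per the submitters' processing notes, the builds were hg19 and GRCh37, and SAMtools 1.10, bedtools 2.26.0 and Cell Ranger were used. How the codes were made, and the read depth, is not given in the sources used here.

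Bins with a call in 90% of cells or more in each line were kept (27142 of 27704). A cluster's state in a cell is that of most of its called bins, and ties were left out. Strata needed at least 5 cells of each line. The midpoint is from a logistic curve. Called means a difference of at least 15 points. Functions were tested on simulated data. No doublet caller was run. Python 3.11.15, NumPy 2.4.6, pandas 2.3.3 and SciPy 1.17.1 were used. Named genes are the 39 HOX genes, EVX1, EVX2 and the nearest 2 protein-coding genes on each side of a cluster. Named bins are those over a cluster, those with the highest or lowest share or difference of each window, and bins next to the limit. Some bins with the highest or lowest share within 2 Mb, and each line's lowest bin before HOXB, are also named. Members, lists and limits were chosen with earlier results of these data known. Alternatives changed the call minimum, strata, matching, flanks, limit and cells used.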

Additional observations from a re-analysis of the deposited data

Results flagged for a closer look

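Code 0, which was left out of every share, was more frequent in DKO1 in each HOX window. It took 0.902% of the calls in the HOXA window of DKO1 against 0.621% in HCT116, 0.694% against 0% in the HOXB window, 1.19% against 0.311% in the HOXC window, and 3.41% against 1.24% in the HOXD window. Over all bins it took 2.80% of DKO1 and 1.08% of HCT116 calls. In HOXD, the window with the highest values, 10 of 207 DKO1 cells (4.83%, interval 2.34 to 8.70%) and 4 of 322 HCT116 cells (1.24%, 0.339 to 3.15%) had any code 0. What the code stands for was not tested.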

How the results depend on the processing

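No paired analysis was possible because each line is 1 library. The HOXA and HOXD differences kept their sign under every alternative that gave a value: -7.75 to -3.13 points for the HOXA cluster, -12.9 to -7.56 for its window, 10.4 to 16.1 for the HOXD cluster and 5.996 to 17.7 for its window. The alternatives include those, chosen after seeing the data, without cells in which the cluster's chromosome lay over 15 points off its relation to progress. HOXB gave 3.58 to 8.77 for the cluster and 0.741 to 6.01 for the window. The HOXC window, 0.927, ran from -0.023 to 3.07, the last with flanks of 1000 kb. All alternatives reuse the same libraries. A counting spread was taken from the binomial intervals of both lines combined, with each share read as a plain count of cells. The shares weight the strata equally, so cells in small strata count more and this spread can be too small. It was larger than the main difference for the HOXA cluster (6.99 against -4.66 points), the HOXB window (4.81 against 3.53) and the HOXC window (1.67 against 0.927). The other differences of share, of clusters and windows, exceeded theirs. The counts of bins moved most. The 5 higher bins became 1 with bins called in 99% of cells (no HOXD bin was kept), 8 with strata from 30 to 70%, also 8 with low-code-0 cells in those strata, 2 with flanks of 250 kb, 10 at a limit of 10 points and 0 at 20 points. The 2 lower bins became 0 with strata of 20 points, without matching, with low-code-0 cells in strata from 30 to 70%, with flanks of 250 kb and at 20 points, 1 with strata from 30 to 70%, 7 at 10 points and 9 with flanks of 1000 kb. At 10 points the background was 14.7% higher and 14.8% lower, and at 20 points 3.24 and 3.57%. At the other settings the share over all bins was not computed, so those counts have no background beside them. The HOX bins counted were 38 with calls in 99% of cells, 35 with flanks of 250 kb and 111 with 1000 kb. The DKO1 midpoint of HOXA, 26.0%, was 33.5% in low-code-0 cells. The cause of these shifts was not tested, except that other flanks or call minimums change the bins counted. The difference in mixed HOXD cells, -1.66 points, ran from -12.2 to 15.7. Cell number limits the early strata, which held 33 and 11 cells at 20 to 30%.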
